A study of Mus musculus with 6 samples.

Results

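The molecular circadian clock was read out through 10 genes in RNA-seq of cultured mouse chondrocytes with and without periostin. The members are the core feedback genes and 1 output gene, namely Arntl, Clock, Per1, Per2, Per3, Cry1, Cry2, Nr1d1, Nr1d2 and Dbp. They were found by matching the gene identifiers of the count tables to gene symbols, and all 10 were found among the 41388 genes of each table. All 10 also passed the filter on low counts, which left 14533 genes for testing.

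Periostin, the product of Postn, is a secreted matricellular protein, and the study asked how its loss alters joint cartilage. Chondrocytes were taken from the femoral heads of male mice aged 21 days and were kept for 2 days in medium with fetal bovine serum before RNA was extracted. The groups were 3 Postn-/- mice, homozygous for the tm1Jmol allele on a mixed B6 and 129 background, and 3 wt mice. Both genotypes were littermates bred from heterozygous parents and were housed under a cycle of light and dark. The allele is inherited and not limited to a cell type or a time, so the comparison is of cells that developed with it. The clock time at which cartilage or RNA was collected is not given in the sources used here, each mouse contributed a single time point, and no rhythm could be measured. Total counts ran from 20587640 to 26572260 reads per sample. A level of 3 counts corresponded to between 0.113 and 0.146 CPM (counts scaled to the total of the sample), and the lowest count of any clock gene in any sample was 75.

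The mammalian clock is a loop of transcription and repression that runs in nearly every cell, chondrocytes included. The proteins of Arntl (BMAL1) and Clock bind E-box elements as a pair and drive the Per and Cry genes, whose proteins return to the nucleus and repress that pair. A second loop couples it to the nuclear receptors of Nr1d1 and Nr1d2 (REV-ERB alpha and beta), which repress Arntl, and to ROR receptors, which activate it. Dbp, Tef and Hlf encode related activators that carry the rhythm to output genes through D-box elements. In dividing or explanted cells, a change of serum can set the phase of this loop.

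The targeted gene was examined first as a check of the labels. After TMM normalization, which scales each sample for depth and composition, Postn was at 4.66, 4.27 and 5.67 CPM in Postn-/- mice against 10.1, 10.3 and 6.90 CPM in the wt samples. The highest Postn-/- sample was under the lowest wt sample. The log2 fold change, Postn-/- over wt, was −0.91 with a standard error (SE) of 0.22 (unadjusted p = 0.00362 before and adjusted p = 0.717 after Benjamini-Hochberg correction over all tested genes, by the quasi-likelihood method of edgeR). Between 105 and 119 reads per sample were still counted on Postn in the Postn-/- samples. Reads were counted over all exons of a gene, so gene counts do not show which part of the altered locus they came from. The direction of Postn followed the labels in all 6 samples.

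The chondrocyte label was checked against 13 cartilage genes, all of them tested. Their summed level was 48606, 36355 and 47036 CPM in the Postn-/- samples and 31061, 44663 and 38550 CPM in the wt samples. Col2a1, the main collagen of cartilage, was the most abundant of them, and the aggrecan gene Acan and the cartilage transcription factor gene Sox9 were present at 1604 CPM or more and 322.6 CPM or more in every sample. The label therefore stood in all 6 samples. In bulk RNA, fewer cells of a type and less RNA per cell cannot be told apart. Of the 13 genes, 2 had a p before adjustment (nominal p) of at most 0.05 in edgeR's test, against 916 of all 14533 tested genes (6.3%). Col2a1 was at 15767, 13696 and 18081 CPM in Postn-/- and 8271, 11867 and 9567 CPM in wt, with a log2 fold change of 0.68 (SE 0.21, unadjusted p = 0.0125). Col11a2, another fibrillar collagen gene, had a log2 fold change of 0.52 (SE 0.21, unadjusted p = 0.0406), with genotypes that overlapped. The most abundant others, Comp, Col11a1, Cnmd and Matn1, had log2 fold changes of 0.27, −0.14, −0.29 and −0.27. Of these 4, the genotypes did not overlap for Cnmd, which was lower in every Postn-/- sample. The median log2 fold change was 0.18 over the 13 genes and 0.0042 over all 14533 tested genes. Whether these cartilage genes and the clock genes described next shared a source of variation was not tested.

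Levels between genes were compared per exon length, in the deposited RPKM, as means of the 6 samples with their SD. Nr1d1 was the most abundant clock gene at 26.0 ± 4.69 RPKM, and its lowest sample, at 22.3 RPKM, lay above every sample of the other 9. A middle group followed with Nr1d2 at 5.65 ± 1.41, Arntl at 5.34 ± 0.988, Clock at 4.93 ± 0.433, Cry2 at 4.90 ± 0.892 and Per3 at 4.49 ± 1.77 RPKM. These 5 lay within each other's spread, and their order carries no further meaning. Below them came Dbp at 1.67 ± 0.401, Cry1 at 1.38 ± 0.278 and Per2 at 1.22 ± 0.145 RPKM, again within each other's spread, and the highest Dbp sample (2.19) just passed the lowest Per3 sample (2.16). Per1 was lowest at 0.811 ± 0.161 RPKM, and its highest sample, at 0.963 RPKM, was under every sample of the other 9. By mean RPKM, Nr1d1 stood at the 84.6 percentile of the tested genes and Per1 at the 21.5 percentile.

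**Figure D1:**
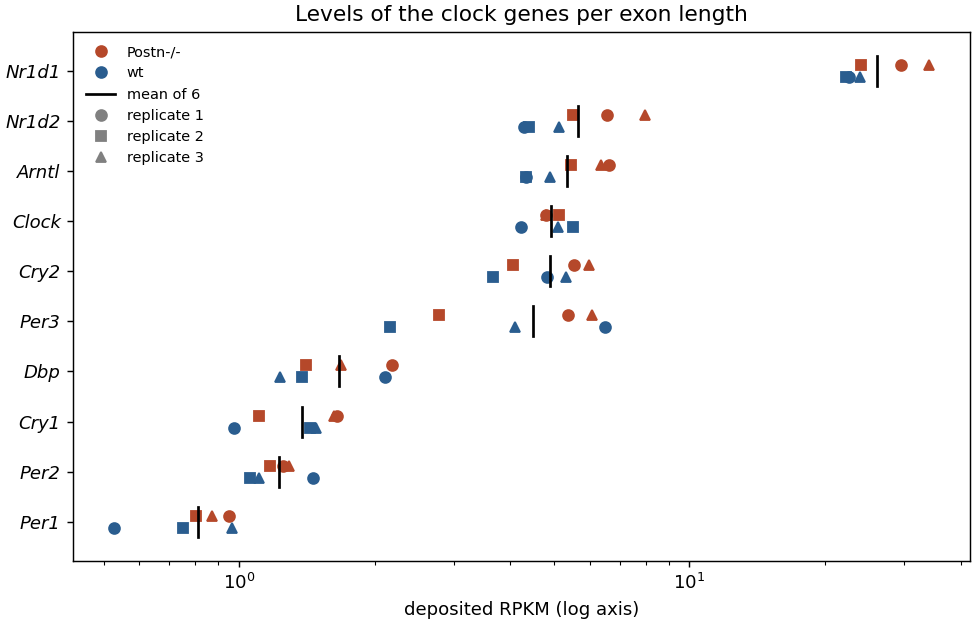
Deposited RPKM of the 10 clock genes on a log axis, 1 point per sample (red Postn-/-, blue wt, shape the replicate number), with the mean of 6 as a black line. Nr1d1 lies apart at 22.3 RPKM and above, a middle group of 5 genes overlaps, and Per1 is lowest with a mean of 0.811 RPKM.

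Across the comparison of genotypes, 0 of the 10 clock genes passed an adjusted p threshold of 0.05 in edgeR, where 2 of 14533 tested genes did (0.0138%). Those 2 genes, named here after their values were seen, were Tm4sf1 and Dscaml1. DESeq2's Wald test called 11 genes by its adjusted p and voomWithQualityWeights with surrogate variables called 4, and neither called a clock gene. At a nominal p of at most 0.05, 3 clock genes were reached, against 916 of 14533 tested genes (6.3%). All 3 were higher in Postn-/-, a direction taken by 574 of the tested genes (3.95%). The 3 were Arntl, Nr1d1 and Nr1d2, which are also the only clock genes whose genotypes did not overlap. Among all tested genes 1022 were without overlap and higher in Postn-/- (7.03%) and 955 without overlap and lower (6.57%). The fitted log2 fold change was above 0 for 9 of the 10 clock genes and for 7376 of the 14533 tested genes (50.8%), and its median was 0.17 over the clock genes. The count of 3 was 1 without Postn-/- replicate 1, when only Nr1d2 was left. It was 2 without Postn-/- replicate 3 or without any single wt replicate, since Nr1d1 was lost each time, and 2 in DESeq2's test.

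**Figure D2:**
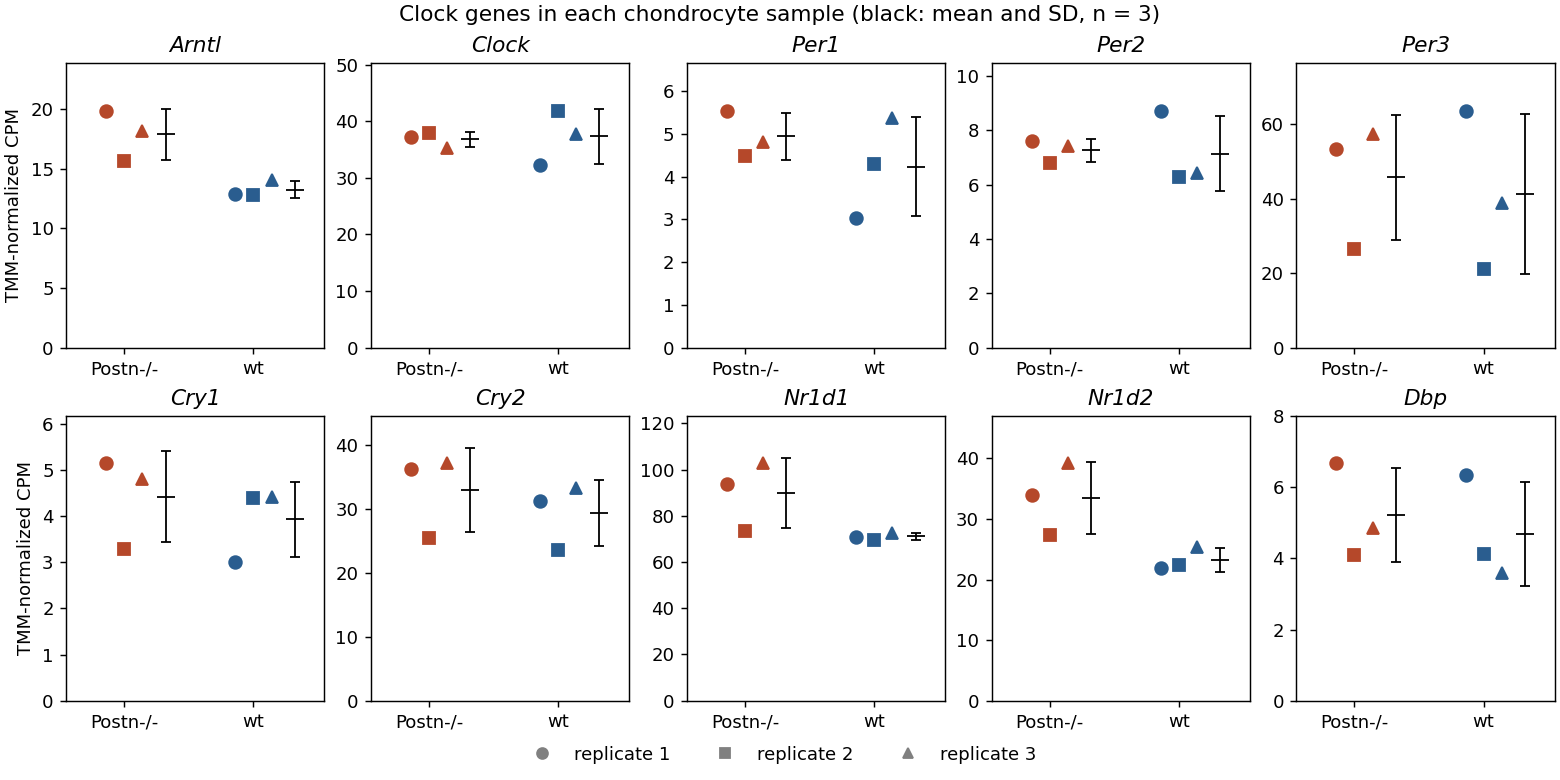
TMM-normalized CPM of each clock gene from 0, 1 point per sample (red Postn-/-, blue wt, shape the replicate number), with mean and SD of 3 in black. Arntl, Nr1d1 and Nr1d2 show no overlap between genotypes, while Per3 spans 21.1 to 63.6 CPM with full overlap.

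Of the activators, Arntl encodes the partner without which the loop stops. Arntl was at 19.9, 15.7 and 18.2 CPM in Postn-/- mice against 12.9, 12.8 and 14.1 CPM in wt. The lowest Postn-/- sample, replicate 2, was above the highest wt sample, replicate 3. Group means were 17.9 ± 2.13 and 13.3 ± 0.720 CPM (SD, n = 3), and the log2 fold change was 0.43 with an SE of 0.14 (unadjusted p = 0.0154, adjusted p = 0.717 after Benjamini-Hochberg correction in edgeR). Without Postn-/- replicate 1, its highest sample, the log2 fold change was 0.35 and the nominal p was 0.0597. Clock, which encodes the other partner, was at 37.2, 37.9 and 35.3 CPM in Postn-/- mice against 32.3, 41.9 and 37.8 CPM in wt. The Postn-/- samples sat inside the wt range. Its log2 fold change was −0.02 with an SE of 0.12 and turned to 0.07 without wt replicate 2, so no direction can be given. The members of this pair did not move together over the 6 samples (Pearson r = −0.086).

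Among the repressors, Per3 showed the widest variation and no separation of genotypes. Per3, the period gene that is least needed for the loop itself and oscillates strongly in peripheral tissues, was at 53.4, 26.4 and 57.2 CPM in Postn-/- mice against 63.6, 21.1 and 38.9 CPM in wt. The samples with replicate number 2 were the lowest of either genotype, and wt replicate 1 was the highest of the 6, at 3.02 times wt replicate 2. Its log2 fold change was 0.15 with an SE of 0.41 (unadjusted p = 0.731 in edgeR's test). Leaving out single samples moved it between −0.17 and 0.61. The within-genotype SD of its log2 CPM was 0.71, which put Per3 at the 99.0 percentile of the 1453 tested genes in the same decile of expression, where the median SD was 0.15.

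The 2 other period genes encode repressors that respond quickly to light and hormonal signals. Per1 was at 5.55, 4.47 and 4.81 CPM in Postn-/- mice against 3.04, 4.30 and 5.37 CPM in wt. The lowest and next lowest samples were wt, but the wt replicate 3 lay inside the Postn-/- range, and the log2 fold change was 0.23 with an SE of 0.25. It was 0.03 without wt replicate 1 and 0.43 without wt replicate 3. Per2 was at 7.59, 6.79 and 7.43 CPM in Postn-/- mice against 8.73, 6.29 and 6.42 CPM in wt. Here wt samples were both the highest and the lowest, and the log2 fold change of 0.02 (SE 0.19) turned to −0.06 without wt replicate 2. At the 26.2 percentile within its decile of expression, Per2 varied less among mice of 1 genotype than most genes of its level.

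The cryptochrome genes Cry1 and Cry2 encode the proteins that hold the activator pair inactive. Cry1 was at 5.14, 3.29 and 4.81 CPM in Postn-/- mice against 3.00, 4.39 and 4.41 CPM in wt, and Cry2 was at 36.2, 25.4 and 37.1 CPM in Postn-/- mice against 31.2, 23.5 and 33.3 CPM in wt. For Cry1 the lowest samples were wt replicate 1 and Postn-/- replicate 2. For Cry2 the samples with number 2 were lowest in both genotypes, as for Per3, and the genotypes overlapped. The log2 fold changes were 0.17 for Cry1 (SE 0.26) and 0.17 for Cry2 (SE 0.19), with nominal p of 0.533 and 0.411 in edgeR's test. Single samples moved both. Cry1 was 0.0051 without wt replicate 1 and 0.34 without Postn-/- replicate 2, and Cry2 was 0.03 without wt replicate 2 and 0.32 without Postn-/- replicate 2.

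Nr1d1 and Nr1d2, the nuclear receptor genes of the stabilizing loop, were both higher in Postn-/- mice at a nominal p of at most 0.05. Nr1d2 was at 34.0, 27.3 and 39.2 CPM in Postn-/- mice against 21.9, 22.4 and 25.4 CPM in the wt samples. All Postn-/- samples were above all wt samples, with replicate 2 the lowest of the Postn-/- samples. Group means were 33.5 ± 5.93 and 23.2 ± 1.93 CPM (SD, n = 3), and the log2 fold change was 0.53 with an SE of 0.15 (unadjusted p = 0.00937, adjusted p = 0.717 after Benjamini-Hochberg correction in edgeR). Nr1d2 was the only clock gene whose nominal p was at most 0.05 under all 14 alternatives, between 0.00225 and 0.0412, with adjusted p between 0.249 and 0.983. Nr1d1 was at 93.8, 73.3 and 102.7 CPM in Postn-/- mice against 70.9, 69.6 and 72.6 CPM in wt. The separation rested on a narrow gap, since Postn-/- replicate 2 was within 1 CPM of wt replicate 3. The log2 fold change of Nr1d1 was 0.34 with an SE of 0.13 (unadjusted p = 0.0365, adjusted p = 0.717 in edgeR's test). Its nominal p exceeded 0.05 in 6 of the 14 alternatives and its log2 fold change stayed between 0.23 and 0.47.

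Dbp, the output gene, encodes a D-box activator whose transcript swings widely over the day in liver and cartilage. Dbp was at 6.67, 4.11 and 4.86 CPM in Postn-/- mice against 6.34, 4.12 and 3.59 CPM in wt. The samples with replicate number 1 were the highest of both genotypes, and the genotypes overlapped, with Postn-/- replicate 1 above every wt sample and wt replicate 3 below every Postn-/- sample. The log2 fold change was 0.15 with an SE of 0.29 and was −0.07 without Postn-/- replicate 1. Dbp shares 491 exon bases (16.7% of its exon length) with Sphk2 on the opposite strand, Nr1d1 shares 263 (8.55%) with Thra and Cry2 shares 295 (4.67%) with D930015M05Rik. Use of strand in counting is not stated, and the authors kept only unambiguous reads. If strand was ignored, reads in these stretches were left out for both partners and the levels of these 3 genes per exon length are too low. Sequence words of read length were shared with the transcripts of some other gene for 16.2% of those in Dbp, 7.27% in Nr1d1, 5.13% in Nr1d2, 3.29% in Cry2 and 0.217% in Per3, and for none in the other 5 clock genes.

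**Figure D3:**
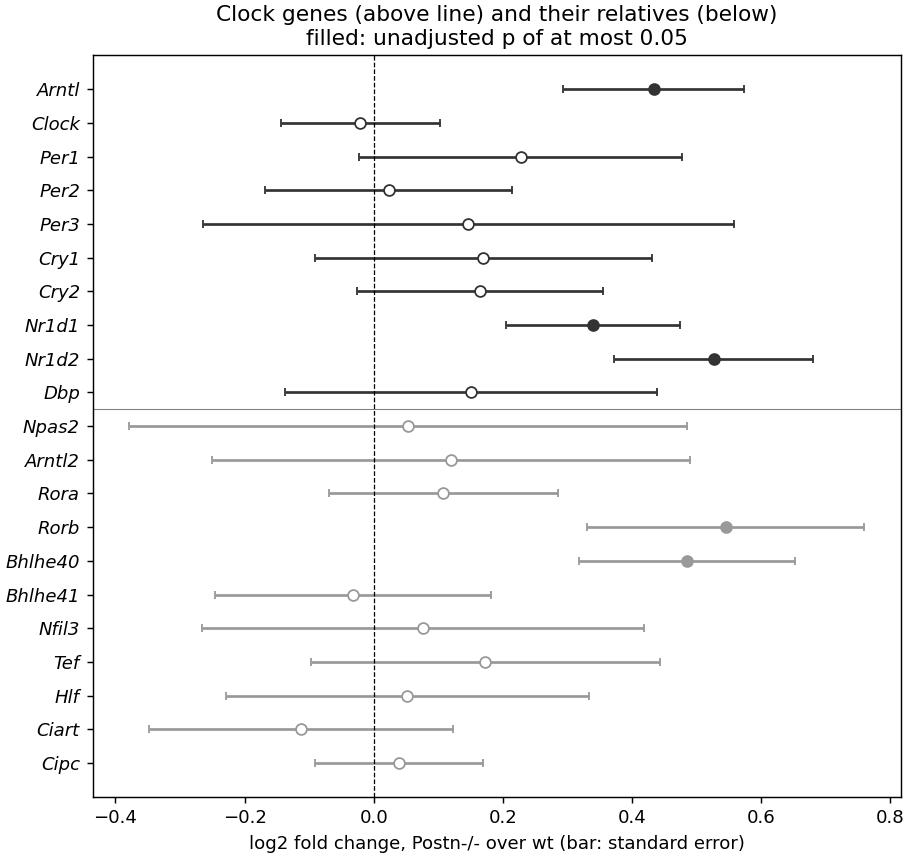
Log2 fold change, Postn-/- over wt, with its SE for the 10 clock genes (above the line) and 11 related genes (below), filled where the nominal p was at most 0.05. Filled points are Arntl at 0.43, Nr1d1 at 0.34, Nr1d2 at 0.53, Rorb at 0.55 and Bhlhe40 at 0.49. None of these passed the adjusted threshold.

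The loop was widened to 12 relatives of the clock genes (paralogs, ROR receptors and other feedback factors), all tested. Of these, 2 were higher in Postn-/- at a nominal p of at most 0.05 in edgeR's test, as were 3.95% of all tested genes, and 0 were lower. The median log2 fold change was 0.06. Bhlhe40 (DEC1), a repressor of E-box genes, was at 198.5, 147.2 and 236.9 CPM in Postn-/- mice against 139.1, 134.6 and 142.4 CPM in wt. Its genotypes did not overlap, with a log2 fold change of 0.49 (SE 0.17, unadjusted p = 0.0202). Rorb, an ROR receptor gene of low level here, had a log2 fold change of 0.55 (SE 0.21, unadjusted p = 0.0353), again without overlap. Its commoner relative Rora had 0.11 (SE 0.18). The paralog of Bhlhe40, Bhlhe41, which was the most abundant relative in CPM, had −0.03 (SE 0.21), and Ciart, a repressor that acts on the activator pair, had −0.11 (SE 0.24). Tef, the D-box activator, had 0.17 (SE 0.27).

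Regulators of clock protein stability and localization were 10 genes, kinases and ubiquitin ligases among them. All were tested and 0 had a nominal p of at most 0.05 in edgeR's test, against 6.3% of all tested genes. Their median log2 fold change was 0.08. Gsk3b, a kinase of several clock proteins, was the most abundant and had a log2 fold change of −0.10 (SE 0.12). Nono, an RNA-binding partner of PER proteins, had −0.24 (SE 0.13), Csnk1d, the kinase that marks PER proteins for decay, had 0.03 (SE 0.09), and Btrc, a ligase that recognizes them, had −0.07 (SE 0.12). Of 6 output genes, 5 were tested, with a median log2 fold change of 0.065, and Lonrf3 was below the filter with 111 counts over the 6 samples. Pdk4, a kinase that restrains pyruvate use, was the only one of the 5 at a nominal p of at most 0.05 (against 6.3% of all tested genes), at 3.34, 4.64 and 3.67 CPM in Postn-/- and 2.00, 1.95 and 2.64 CPM in wt (log2 fold change 0.82, SE 0.24, unadjusted p = 0.00925). The genes Tspan4, Nampt and Por, more abundant, had log2 fold changes of 0.22, 0.02 and −0.08.

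Hormonal and serum signals feed into the clock through the Per genes, and their response genes were listed for that purpose. Of 7 glucocorticoid response genes, 1 had a nominal p of at most 0.05, against 6.3% of all tested genes, and the median log2 fold change was 0.125. That gene was Errfi1, a feedback inhibitor of EGF receptor signalling, at 17.4, 20.2 and 18.4 CPM in Postn-/- and 14.3, 13.2 and 10.5 CPM in wt (log2 fold change 0.56, SE 0.16, unadjusted p = 0.00734). The classical targets Tsc22d3, Sgk1 and Klf9 had log2 fold changes of 0.21, 0.12 and 0.12, and Dusp1 had 0.28 (SE 0.44). Fkbp5, another classical target, had −0.28 (SE 0.22) and Zbtb16 had −0.03 (SE 0.29). Of 9 immediate early genes, 8 were tested, 3 of these had a nominal p of at most 0.05 (against 6.3% of all tested genes), and their median log2 fold change was 0.94. Their summed level was 54.0, 132.9 and 132.4 CPM in Postn-/- and 64.2, 73.2 and 39.3 CPM in wt, with Ier2 the most abundant. Junb, an AP-1 subunit gene, was at 9.48, 16.3 and 9.67 CPM in Postn-/- and 3.11, 8.46 and 3.50 CPM in wt (log2 fold change 1.24, SE 0.41, unadjusted p = 0.0172). Nr4a1, an orphan nuclear receptor gene, had 0.85 (SE 0.25, unadjusted p = 0.00898), and Arc had 2.08 (SE 0.85, unadjusted p = 0.0398) with genotypes that overlapped. Fos, Egr1 and Ier2 had log2 fold changes of 1.03, 1.14 and 0.73 with SE of 0.62, 0.76 and 0.36, and their genotypes overlapped. Crem, a CREB family gene, was the only tested member below 0, at −0.17 (SE 0.16). Sik1 was below the filter with 51 counts over the 6 samples. Per1, which such signals induce, had its 3 highest values in Postn-/- replicate 1, wt replicate 3 and Postn-/- replicate 3. Of these 3 samples, the summed level of the early genes was the lowest of all in wt replicate 3 and next lowest in Postn-/- replicate 1. In Postn-/- replicate 3 it was 132.4 CPM, just under the highest sum. Whether such signals had a part in the Per1 values was not tested.

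Read by replicate number, the Postn-/- sample was above the wt sample of the same number at all 3 numbers for 4 clock genes (Arntl, Cry2, Nr1d1 and Nr1d2), against 2600 of the 14533 tested genes (17.9%). For Nr1d2 the differences in log2 CPM were 0.63, 0.29 and 0.62 at numbers 1, 2 and 3. For Arntl they were 0.63, 0.29 and 0.37, and for Nr1d1 0.40, 0.07 and 0.50. The difference was smallest at number 2 for each of these 3 genes. Per3 went the other way at number 1, with −0.25, and was 0.33 and 0.56 at numbers 2 and 3. Postn-/- replicate 2 was the lowest sample of its genotype for 9 of the 10 clock genes, all but Clock, a place it took for 5123 of the tested genes (35.3%). In wt the sample with number 2 was lowest for 5 clock genes, and over all tested genes for 34.6%.

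Per3 varied with Tef and against Npas2 over the 6 samples, in a pattern that crossed the genotypes. Correlations are of log2 CPM over 6 samples, 1 per mouse, which share genotype, replicate number and library depth, and they describe these samples. Over the 45 pairs of clock genes, Pearson r ran from −0.908 to 0.964 with a median of 0.44, and 33 pairs were above 0. For Per3, r with the other clock genes ran from −0.869 (Clock) to 0.876 (Cry2), with 0.048 for Cry1. Per3 ran with Tef (r = 0.973, Spearman rho = 1.0, and r = 0.978 after genotype means were removed) and against Npas2, the Clock paralog (r = −0.938, rho = −0.943, and r = −0.954 after removal). Both held in the 4 samples left without those farthest from the median of Per3, at r of 0.998 and −0.941. Tef was at 36.3, 25.4 and 38.6 CPM in Postn-/- mice against 41.8, 20.6 and 26.5 CPM in wt, while Npas2 was at 3.66, 7.20 and 2.72 CPM in Postn-/- mice against 2.54, 6.06 and 4.55 CPM in wt. Where Per3 and Tef were lowest, in replicate 2 of either genotype, Npas2 was highest. The relation of Per3 with Cry2 (r = 0.876, rho = 0.657) was −0.024 in the 4 samples without those farthest from the median, so it rested on those samples. Clock, which varied over a range of 1.30-fold, ran against Per2 (r = −0.908, rho = −0.886) and less so in the 4 remaining samples (r = −0.652).

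The 3 genes whose genotypes did not overlap share that difference, which by itself raises their correlations, so values without genotype means are given beside them. Nr1d1 and Nr1d2 had r = 0.964 (rho = 0.943, and r = 0.937 after genotype means were removed). Bhlhe40 followed Nr1d1 at r = 0.997 (rho = 1.0, and 0.993 after removal), the order of the samples being the same for both. Arntl ran with Nr1d2 (r = 0.933, and 0.748 after removal) and with Nr1d1 (r = 0.896, and 0.769 after removal). After removal Arntl was about as close to Cry2 (r = 0.806) and Cry1 (r = 0.779), and it ran against Nfil3, a D-box repressor gene (r = −0.953, against −0.384 before removal). With genotype means kept, r in the 4 samples without those farthest from the median of Arntl was 0.902 with Nr1d1, 0.975 with Nr1d2, −0.072 with Cry2, −0.168 with Cry1 and 0.255 with Nfil3. These 4 are 1 Postn-/- and 3 wt samples, so they were not set against the values after removal. Nr1d proteins repress Arntl in the textbook loop, and here transcripts of repressor and target were highest in Postn-/- replicates 1 and 3. In Postn-/- replicate 2, Arntl and Nr1d2 were both close to their means of the 6 samples, at 0.03 and −0.02 in log2 CPM. Nr1d1 was at −0.12 there.

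**Figure D4:**
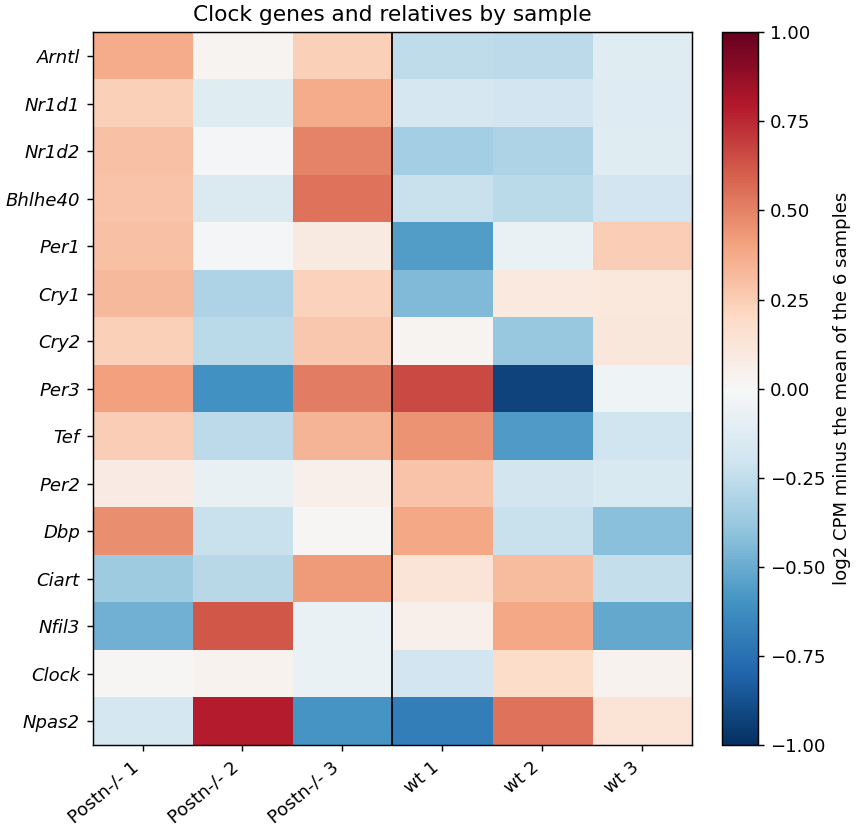
Log2 CPM of the clock genes and 5 relatives in each sample, minus the mean of the 6 samples (red above, blue below). Arntl is above that mean in every Postn-/- sample (only just in replicate 2) and below it in every wt sample. Nr1d1, Nr1d2 (only just) and Bhlhe40 are below that mean in Postn-/- replicate 2 as well as in wt. Per3 and Tef are low and Npas2 is high in replicate 2 of both genotypes.

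Of 9946 tested genes with a mean of at least 5 CPM outside the lists, the 5 most like Arntl over the 6 samples were Hr, Lrch1, Ctso, Iqsec1 and Palm, with Pearson r from 0.984 to 0.996. Hr, a nuclear receptor corepressor gene, was at 23.4, 16.3 and 20.7 CPM in Postn-/- mice against 12.6, 13.1 and 14.2 CPM in wt, a log2 fold change of 0.60. The 5 most like Dbp were Npdc1, 1520401A03Rik, Tbc1d24, Mtus1 and Gm1976, with r from 0.973 to 0.992. Npdc1 was at 142.0, 104.7 and 111.0 CPM in Postn-/- mice against 133.0, 104.0 and 93.6 CPM in wt, highest in replicate 1 of both genotypes as Dbp was. Of the 9946 candidates, 131 had r of at least 0.9 with Arntl and 56 with Dbp. Genotype means were kept in these r, so a difference between genotypes that a gene shares with Arntl raises its r.

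Promoter sequence is shown for the members because E-box, D-box and ROR elements are how these genes are wired to each other. RefSeq start sites of build GRCm38.p6 gave 13 windows for 9 of the 10 clock genes (all but Per2), each running from 250 bases before the start to 50 after it. Both strands were searched for the E-box CACGTG, the related CACGTT, the D-box TTATGTAA or TTACGTAA, the ROR element ANTAGGTCA, its core AGGTCA (contained in the longer form) and the CRE TGACGTCA. Of 32851 such windows, 7.15% hold CACGTG, 4.68% CACGTT, 1.06% a D-box, 0.661% the ROR element, 16.3% AGGTCA and 1.79% the CRE. Among the 9 genes searched, the D-box was found in Per3 alone, at 2 places, and CACGTG in Per1 and Cry1. CACGTT was found in Cry1, Cry2 and Nr1d1, AGGTCA in Clock, Per1, Nr1d2 and Arntl, and the full ROR element in Arntl, where it begins 28 bases after the start in 1 of its 2 windows. The CRE was found in 0 of the 9. These stretches, printed here for 5 clock genes, run 5′ to 3′ on the strand of the gene, lie before the start site, and have the matched letters of either strand in capitals. They are for Per3 at chr4:151044796-151044890 (minus strand), Cry1 at chr10:85185089-85185153 (minus strand), Per1 at chr11:69098763-69098837 (plus strand), Nr1d1 at chr11:98775380-98775425 (minus strand) and Nr1d2 at chr14:18239158-18239203 (minus strand).
Per3: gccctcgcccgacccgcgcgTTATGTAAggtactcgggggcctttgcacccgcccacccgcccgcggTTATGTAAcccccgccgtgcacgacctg
Cry1: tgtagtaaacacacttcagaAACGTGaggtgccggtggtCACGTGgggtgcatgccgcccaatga
Per1: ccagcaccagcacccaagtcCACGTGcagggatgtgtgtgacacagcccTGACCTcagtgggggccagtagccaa
Nr1d1: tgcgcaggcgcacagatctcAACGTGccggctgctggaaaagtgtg
Nr1d2: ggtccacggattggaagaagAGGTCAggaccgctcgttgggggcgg
A match describes the letters of a window and does not show that a factor was bound there.

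Markers of other cells that femoral head cartilage can bring into culture were read in the same samples. Of 5 osteoblast genes, all tested, 0 had a nominal p of at most 0.05, a threshold that 6.3% of all tested genes passed, so a count of 0 in so short a list says little. Their sum was 1305, 1909 and 1013 CPM in Postn-/- and 789.8, 3454 and 1513 CPM in wt, with Alpl the most abundant at 464.6 to 2294 CPM. The osteoblast sum was thus highest in replicate 2 of each genotype, the samples in which Per3 was lowest, and lowest in wt replicate 1, in which Per3 was highest. Of the 5 genes, Alpl, Ibsp, Sp7 and Runx2 each followed that order. Bglap, the osteocalcin gene, did not, at 102.1, 95.3 and 151.0 CPM in Postn-/- and 148.8, 102.4 and 94.0 CPM in wt. Whether bone-forming cells had a part in the Per3 values was not tested. All 12 proliferation genes were tested and had log2 fold changes below 0, as did 7157 of the 14533 tested genes. At a nominal p of at most 0.05 there was 1 of the 12, against 6.3% of all tested genes, namely Ccnb1 at −0.75 (SE 0.32, unadjusted p = 0.0467). Their median was −0.63, and their sum was 416.7, 660.5 and 311.2 CPM in Postn-/- and 1005, 541.1 and 570.4 CPM in wt, led by Top2a. Postn-/- replicate 2 had the highest sum among the Postn-/- samples and the lowest Arntl, Nr1d1 and Nr1d2. The part of proliferation in the clock gene values was not tested.

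Fibroblast and synovial genes (5 of 6 tested, Thy1 below the filter with 56 counts over the 6 samples) had 0 at a nominal p of at most 0.05, against 6.3% of all tested genes, and the short lists that follow are read against the same share. They summed to 3981, 3391 and 1994 CPM in Postn-/- and 2597, 3415 and 2337 CPM in wt, with Dcn the most abundant by mean. In replicate 2 of Postn-/- and wt, Col1a1 was the highest of its genotype (1430 and 2059 CPM) and Prg4 the lowest (206 and 131 CPM). The other tested genes of this list followed neither order in both genotypes. Dcn was at 2103, 1565 and 981 CPM in Postn-/- and 1396, 1118 and 1371 CPM in wt. Pdgfra was at 11.6, 15.7 and 8.15 CPM in Postn-/- and 13.8, 6.42 and 9.20 CPM in wt. Whether fibroblast or synovial cells had a part in the Per3 values was not tested. Blood cell and osteoclast genes (5 of 7 tested) also had 0 at that nominal p. They summed to 501.2, 371.3 and 458.6 CPM in Postn-/- and 441.9, 330.6 and 423.3 CPM in wt, most of it Ctsk. The haemoglobin genes Hbb-bs and Hba-a1 were near 0, with 5 and 1 counts over the 6 samples. Of 4 endothelial genes, 3 were tested with 0 at that threshold, the sum was between 3.69 and 8.39 CPM, and Pecam1 was the most abundant. The defining Cdh5 had 39 counts over the 6 samples. Of 4 skeletal muscle genes, Acta1 alone was tested and was lower in Postn-/- (log2 fold change −1.30, SE 0.42, unadjusted p = 0.0152), at 2.77, 4.51 and 4.43 CPM against 4.96, 15.9 and 8.15 CPM. Ckm and Myod1 had 15 and 12 counts over the 6 samples. The 3 adipocyte genes were below the filter, with a sum of 0.5 to 1.76 CPM, Cidec the most abundant and Adipoq at 24 counts over the 6 samples.

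**Figure D5:**
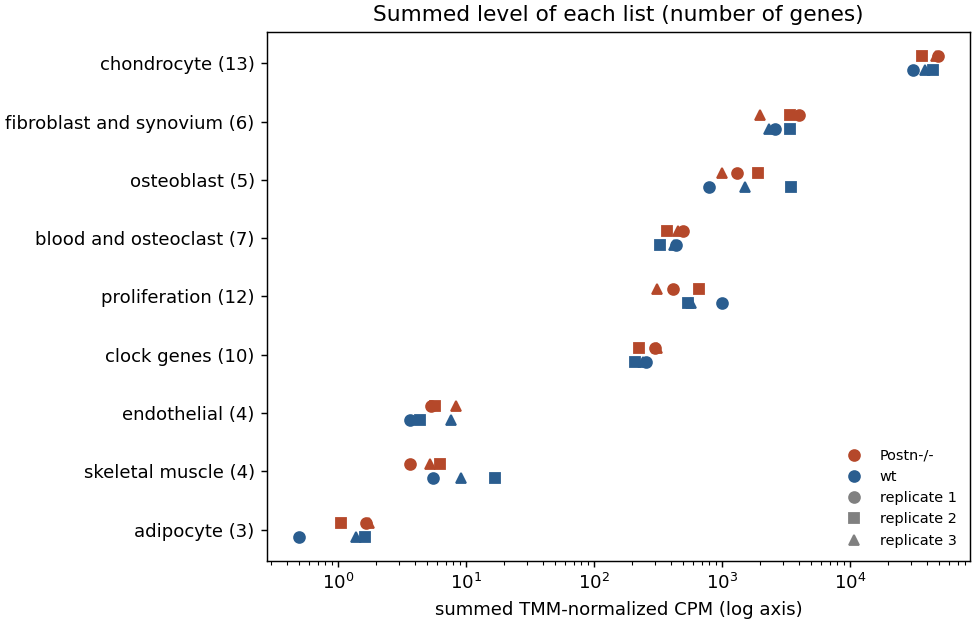
Summed TMM-normalized CPM of each gene list on a log axis, 1 point per sample (red Postn-/-, blue wt, shape the replicate number). Cartilage genes lead at 31061 CPM or more, osteoblast genes are highest in replicate 2 of each genotype, and endothelial, muscle and adipocyte genes lie at 16.9 CPM or less.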

How the data were processed

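Single-end reads of 6 libraries, 3 per genotype, were aligned by the authors with STAR 2.0.4b and counted with featureCounts 1.4.5, as given in their methods and the submitters' processing notes. The deposited counts are raw reads per gene, and use of strand is not stated. The authors also deposited CPM and RPKM, which were checked against the counts and differed by at most 5.8e-11. Coordinates of the tables match GRCm38. Symbols came from GENCODE M21 (40340 of 41388 identifiers, 97.5%).

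Genes above 1 CPM in at least 2 samples were kept, 355 rRNA genes were left out, and 14533 were tested in R 4.3.3 with edgeR 4.0.16 (TMM, quasi-likelihood test, no covariates, Benjamini-Hochberg adjustment). Standard errors were derived from the fold change and its F statistic. Chi-square per degree of freedom between libraries was 36.5 to 110, so each was used as 1 sample. Spread and correlations used log2 CPM with a prior count of 2. Floors of 3 counts cover counting error only, while the standard errors also include the variation among samples estimated in the fit.

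The genes named were the 10 members, Postn, every listed gene at a nominal p of at most 0.05 with up to 4 others of each list by mean CPM, and the 5 genes most like Arntl and Dbp. Members of small lists, low markers, Acan, Sox9, Tm4sf1, Dscaml1, Tef, Npas2, Nfil3, Zbtb16, Fkbp5, Sik1 and Lonrf3 were chosen for naming with values in view. The values of 1 listed gene are not reported here. Members and lists were chosen with earlier results of these data known. Alternatives were other scalings and filters, DESeq2 1.42.0, voomWithQualityWeights in limma 3.58.1 without and with 2 surrogate variables from sva 3.50.0, a replicate block, and leave-one-out fits.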

Additional observations from a re-analysis of the deposited data

How the results depend on the processing

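Limits: with 3 mice per genotype and 1 time point, no clock gene passed the adjusted threshold in edgeR's test or in any of the 14 alternatives (lowest adjusted p 0.249), and a p above the threshold does not show that values were alike. At the lowest clock gene count of 75 reads, counting error alone limits small differences. For 6 clock genes every alternative kept the sign (Arntl, Per1, Cry1, Cry2, Nr1d1 and Nr1d2), but the log2 fold changes of Per1 (0.034 to 0.4317), Cry1 (0.0051 to 0.3431) and Cry2 (0.0294 to 0.3206) came close to 0 when single samples were left out.

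The count of genes by adjusted p, 2 in the main test, was 2 with DESeq2's size factors, 1 with upper quartile normalization, 9 with no filter, 0 with CPM above 1 in all 6 samples, 11 in DESeq2's test, 1 and 4 in voomWithQualityWeights without and with surrogate variables, and 1 to 2 when single samples were left out. The count at a nominal p of at most 0.05, 916, was 1797 with no filter, 1997 with surrogate variables and 425 to 1257 when single samples were left out. The count of clock genes, 3, was 1 to 3 when single samples were left out. Tm4sf1 (0.64 to 0.81 CPM in Postn-/-) and Dscaml1 (0.72 to 0.96 CPM in wt) lay below 1 CPM, so the filter on all 6 samples left them out. Causes of the other changes were not tested.

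Signs turned for 4 clock genes with small log2 fold changes. Clock was 0.0061 without Postn-/- replicate 3 and 0.0705 without wt replicate 2, in a range of −0.1155 to 0.0705. Per2 was −0.0046 with no filter and −0.0085, −0.0606 and −0.0498 without Postn-/- replicate 1, wt replicate 2 and wt replicate 3 (range −0.0606 to 0.1945). Per3 was −0.0506 and −0.1681 without Postn-/- replicate 3 and wt replicate 2 (range −0.1681 to 0.606). Dbp was −0.0678 and −0.0094 without Postn-/- replicate 1 and wt replicate 3 (range −0.0678 to 0.4351). Spread percentiles with prior counts of 0.5 and 5 left Per3 at 99.0.

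Same-numbered samples were compared by the correlation of their deviations from the genotype means, which was 0.082, 0.155 and 0.143 for numbers 1, 2 and 3, so the numbers were not taken to pair the mice. Each sample nevertheless correlated best with its own number, the other pairings being −0.13 to 0.014, a hint from the data and not the design. With the replicate number as a block, the count by adjusted p was 1 and the count at a nominal p of at most 0.05 was 1188. The clock genes reached were 3, with log2 fold changes of 0.43 for Arntl, 0.33 for Nr1d1 and 0.52 for Nr1d2. The block changed the SE of Per3 from 0.41 to 0.17 and that of Cry2 from 0.19 to 0.10. Their log2 fold changes with the block were 0.21 and 0.16. For Per1 and Cry1 the SE rose, from 0.25 to 0.27 and from 0.26 to 0.28.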
